A study of Homo sapiens with 6 samples.

Results

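The type I keratin block on chromosome 17 is a run of 5 neighbouring rows of the count table, KRT38, KRT43P, KRT32, KRT35 and KRT36. It was examined with the 3 keratin rows that follow it, KRT13, KRT15 and KRT19, which makes 8 rows of 59087. The rows were taken by name, and the block was chosen by its reads, which were present in wild type and missing in both knockout lines, so its fall is described here and not tested. HEK293T, a human embryonic kidney cell line, was compared as a first THUMPD2 knockout line (KO1, 2 libraries), a second THUMPD2 knockout line (KO2, 2 libraries) and wild type (WT, 2 libraries). THUMPD2 is an RNA methyltransferase, and the study used a pair of lines as a check on each other. The labels do not say how each knockout was made, whether each line is 1 clone, or whether replicate libraries stem from separate cultures. The p-values therefore measure the spread between libraries, and that spread may be technical. Every comparison with WT uses the same 2 WT libraries. Total RNA was counted per gene, with 7414339 to 8391143 reads per library.

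Keratins are the intermediate filament proteins of epithelial cells. A type I (acidic) keratin pairs with a type II (basic) keratin, and the pairs assemble into filaments. Most human type I genes lie side by side on chromosome 17 at 17q21, where hair keratins, which build the hair shaft and nail, neighbour keratins of the epidermis, mucosa and simple epithelia. Hair keratins are known from hair and nail, and not as genes of kidney cells.

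On GRCh38 with the GENCODE v29 annotation, the block ran from 41436446 (the low end of KRT38) to 41492546 (the high end of KRT36), 56.1 kb, and all 8 rows lie on the minus strand. In order of position the hair keratins KRT38, KRT32, KRT35 and KRT36 are protein-coding, and KRT43P is an unprocessed pseudogene between KRT38 and KRT32. KRT13, a keratin of mucosal epithelia such as the mouth and oesophagus, begins 8.43 kb beyond KRT36. KRT15, a keratin of basal keratinocytes and of the hair bulge, and KRT19, a keratin of simple and ductal epithelia, follow. The 5 block rows had no exonic base over an exon of a gene on the other strand. The KRT13 row had 476 such bases, over AC019349.1, and KRT15 and KRT19 had none.

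The 4 coding genes of the block are shown by the 250 bases before their RefSeq starts. RefSeq promoter sequences (GRCh38.p14) matched 4 of the 8 rows, KRT38, KRT32, KRT35 and KRT36; KRT43P, KRT13, KRT15 and KRT19 had no entry. All lie on the minus strand, at chr17:41440984-41441233 for KRT38, chr17:41467387-41467636 for KRT32, chr17:41481152-41481401 for KRT35 and chr17:41489911-41490160 for KRT36. The KRT36 window lies inside the span that GENCODE gives for this gene. Capitals mark TATAAA (the TATA box), CTTTGAA (a sequence bound by LEF1, a Wnt pathway factor of hair follicles) and CCAAT (the CCAAT box), read on either strand.
KRT38: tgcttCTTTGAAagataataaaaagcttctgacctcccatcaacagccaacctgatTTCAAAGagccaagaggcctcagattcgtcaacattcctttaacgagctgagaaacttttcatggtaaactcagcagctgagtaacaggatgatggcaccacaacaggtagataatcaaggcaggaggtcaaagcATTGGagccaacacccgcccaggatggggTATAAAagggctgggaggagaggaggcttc
KRT32: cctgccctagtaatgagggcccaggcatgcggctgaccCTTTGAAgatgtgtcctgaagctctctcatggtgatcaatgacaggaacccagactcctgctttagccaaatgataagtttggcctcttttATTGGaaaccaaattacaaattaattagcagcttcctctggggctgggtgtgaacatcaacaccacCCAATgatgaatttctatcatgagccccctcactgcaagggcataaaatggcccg
KRT35: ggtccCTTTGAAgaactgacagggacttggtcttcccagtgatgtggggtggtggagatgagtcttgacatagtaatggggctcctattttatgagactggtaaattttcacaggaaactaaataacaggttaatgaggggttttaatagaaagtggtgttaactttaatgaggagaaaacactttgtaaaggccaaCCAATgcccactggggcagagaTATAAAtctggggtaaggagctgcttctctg
KRT36: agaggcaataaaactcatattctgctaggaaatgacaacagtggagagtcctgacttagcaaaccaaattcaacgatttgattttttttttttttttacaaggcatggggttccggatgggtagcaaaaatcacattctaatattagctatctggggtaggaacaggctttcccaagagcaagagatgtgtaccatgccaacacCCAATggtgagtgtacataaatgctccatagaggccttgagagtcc

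The sequence CTTTGAA was present in the windows of KRT38, KRT32 and KRT35, 3 of 4, and not in that of KRT36, and it was present in 3.8% of 35116 promoter windows of the same length. KRT38 held it on both strands, 245 and 194 bases before the start. KRT32 held it 212 bases and KRT35 245 bases before the start. TATAAA was present in KRT38 and KRT35, 30 and 31 bases before the start, and in 10.7% of all windows. CCAAT was present in all 4 windows and in 32.0% of all windows. No 2 matches overlapped. A match is a description of the letters, and no binding was measured. The hair keratins outside the block were not looked at apart, and a link between these sequences and the reads was not tested.

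Whether the reads of these rows came from the keratin strand is not known, because the strand setting of the counting is not given in the sources used here. The library kit keeps strand, and in this table rows opposite to an abundant gene held many more reads than the gene's own row. In the neighbourhood of the block, AC125257.2, whose 156 exonic bases all lie over exons of ACLY (ATP citrate lyase) on the other strand, had 7874 and 7744 reads in KO1, 8567 and 9136 in KO2, and 9191 and 10041 in WT. The ACLY row itself had 61 and 91 reads in KO1, 64 and 76 in KO2, and 53 and 56 in WT. Rows with an exon over an opposite-strand exon held 89.6% of all counts. By number, such rows made up 22.2% of the rows located on the annotation. From which strand the reads of the block came was not tested. In what follows, a symbol therefore names a row of the table, and a change of the row is not given as one of keratin mRNA or protein. In bulk libraries, fewer cells with a transcript and less of it in each cell cannot be told apart.

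All 5 block rows had reads in both WT libraries and none in any of the 4 knockout libraries. KRT38, a hair cortex keratin, had 0 and 0 reads in KO1, 0 and 0 in KO2, and 222 and 236 in WT. It averaged 29.8 ± 0.25 CPM in WT (SD, n = 2), where CPM are counts scaled to a common library size with edgeR's TMM factors, and the WT libraries lay close together. With 3 reads over the pair of knockout libraries as the limit that a count of 0 allows, KRT38 was at least 144-fold lower in KO1 and at least 168-fold lower in KO2 than in WT. The bounds, like the intervals given for reads, hold no more than counting error, because no molecular identifiers separate molecules from PCR copies. For the bounds this is the error of the knockout counts only. WT reads enter as counted, so the bounds can be too high where WT reads are few.

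KRT32, a keratin of the hair cuticle, had 0 and 0 reads in KO1, 0 and 0 in KO2, and 42 and 68 in WT, and was at least 34.7-fold lower in KO1 and at least 40.2-fold lower in KO2. KRT43P had 0 and 0 reads in KO1, 0 and 0 in KO2, and 41 and 36 in WT, a drop of at least 24.3-fold for KO1 and 28.2-fold for KO2. Both rows were thus well above 0 in each WT library.

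KRT35, a keratin of the hair matrix and cuticle, had 0 and 0 reads in KO1, 0 and 0 in KO2, and 14 and 49 in WT, so KO1 was at least 19.9-fold below WT and KO2 at least 23.1-fold. It was the block row whose WT libraries lay farthest apart, with a mean of 4.02 ± 3.01 CPM (SD, n = 2). KRT36, a keratin of nail and of the tongue's filiform papillae, had 0 and 0 reads in KO1, 0 and 0 in KO2, and 10 and 12 in WT, so KO1 was at least 6.94-fold below WT and KO2 at least 8.05-fold. It was the block row with the fewest reads.

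**Figure D1:**
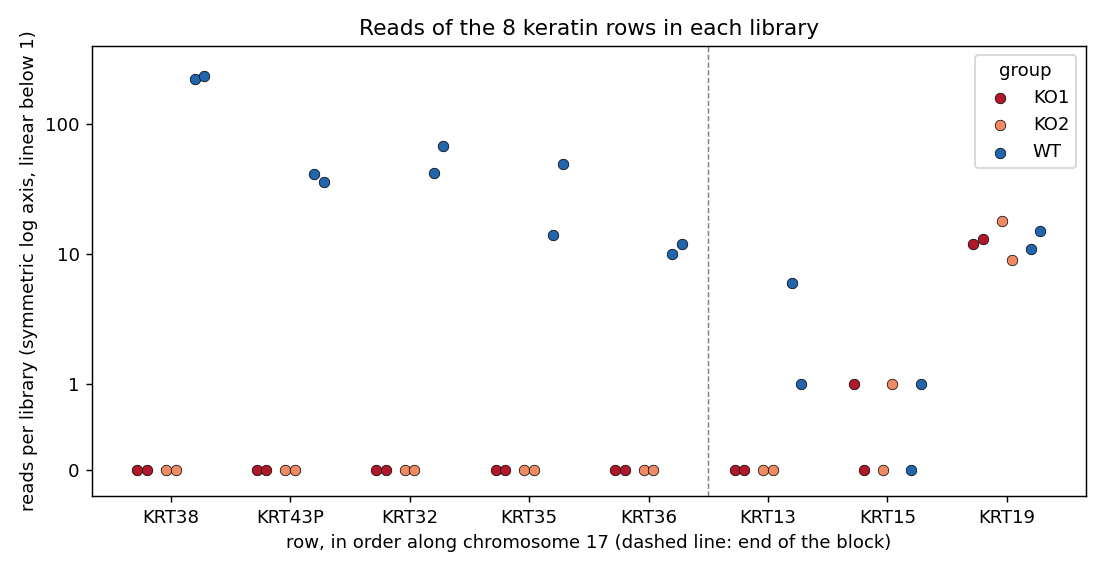
Reads of the 8 keratin rows (horizontal axis, in order along chromosome 17) in each library (vertical axis, symmetric log scale, linear below 1), with 1 point per library and colours for KO1, KO2 and WT. The 5 block rows sit at 0 in all 4 knockout libraries and between 10 and 236 in the WT libraries, while KRT19 sits between 9 and 18 in all 6.

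Summed over the block, there were 0 of 14954127 reads in KO1, 0 of 16317695 in KO2, and 329 and 401 reads in the WT libraries. The WT sums were 44.4 and 50.3 CPM, and the limit of 3 reads in a single library was 0.346 to 0.425 CPM in the 4 knockout libraries. The block as a whole was at least 230.2-fold lower in KO1 and at least 267.1-fold lower in KO2. By the edgeR quasi-likelihood fit of all 6 libraries, all 5 block rows fell below an adjusted p of 0.05 in each line, where 13.3% of the 14184 tested rows were called lower and 10.4% higher in KO1, and 15.4% lower and 13.6% higher in KO2. Since this contrast chose the rows, the counts are a description, and each row passed the filter on low counts through its WT reads alone. Of the 8 rows, 6 passed that filter, and KRT13 and KRT15 did not. The KRT35 and KRT36 calls did not hold in every fit: with DESeq2, KRT35 was not called, with an adjusted p of 0.357 for KO1 and 0.322 for KO2, and KRT36 had no adjusted p for KO1. If WT library 2 was left out, neither row had enough reads to test, and KRT36 had too few without WT library 1. Without KO1 library 1 or 2, the KRT36 row missed the threshold in KO1, at edgeR adjusted p-values of 0.0643 and 0.0633.

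The authors' deposited table, which sets the 4 knockout against the 2 WT libraries, lists 4 of the 8 rows. It gives log2 fold changes of −8.83 for KRT38, −6.75 for KRT32, −6.27 for KRT43P and −5.76 for KRT35, with q-values of 8.86e-05, 0.000499, 0.0004 and 0.00724. In the authors' deposited table, the FPKM values, which allow for gene size, were 0 for each of these rows in every knockout library. The authors' deposited table gives WT FPKM of 12.7 and 12.5 for KRT38, 6.02 and 4.92 for KRT43P, 3.21 and 4.83 for KRT32, and 1.05 and 3.42 for KRT35. KRT38 was thus the highest row per length in both WT libraries and KRT35 the lowest of these 4.

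Along the block, WT reads fell off with rising position, the direction of the plus strand, while the block rows lie on the minus strand. Reads per kb of exon in the first and second WT libraries were 95.0 and 101.0 for KRT38, at the low end. The next row, KRT43P, had 45.1 and 39.6 reads per kb. KRT32 followed with 24.0 and 38.9, KRT35 with 7.87 and 27.6, and KRT36 with 5.36 and 6.43. The order by position was the order by reads per kb in both WT libraries, and no knockout library had a read to compare.

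Not every step in that order was larger than counting error. In WT library 1 the exact 95% Poisson interval of KRT38, 82.9 to 108.3 reads per kb, lay above that of KRT43P, 32.3 to 61.1, and in WT library 2 likewise, at 88.5 to 114.7 against 27.7 to 54.8. KRT43P and KRT32 overlapped in both libraries, with KRT32 at 17.3 to 32.4 and 30.2 to 49.3, and KRT32 also overlapped KRT35 in the second. KRT35 differed between the WT libraries, with 4.30 to 13.2 in the first and 20.4 to 36.4 in the second, and overlapped KRT36 in the first only, where KRT36 spanned 2.57 to 9.86. In the second library KRT36 spanned 3.32 to 11.2, below KRT35.

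KRT38 carried 67.5% of the block's reads in WT library 1 (Wilson 95% interval 62.2 to 72.3%) and 58.9% in WT library 2 (54.0 to 63.6%). KRT35 carried 4.26% in the first (2.55 to 7.02%) and 12.2% in the second (9.37 to 15.8%), a gap wider than counting error. KRT36 carried 3.04% and 2.99%, the same within its interval. The other 4 rows together had 107 reads in WT library 1 and 165 in WT library 2, so most of the difference between the 2 block sums lay outside KRT38.

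**Figure D2:**
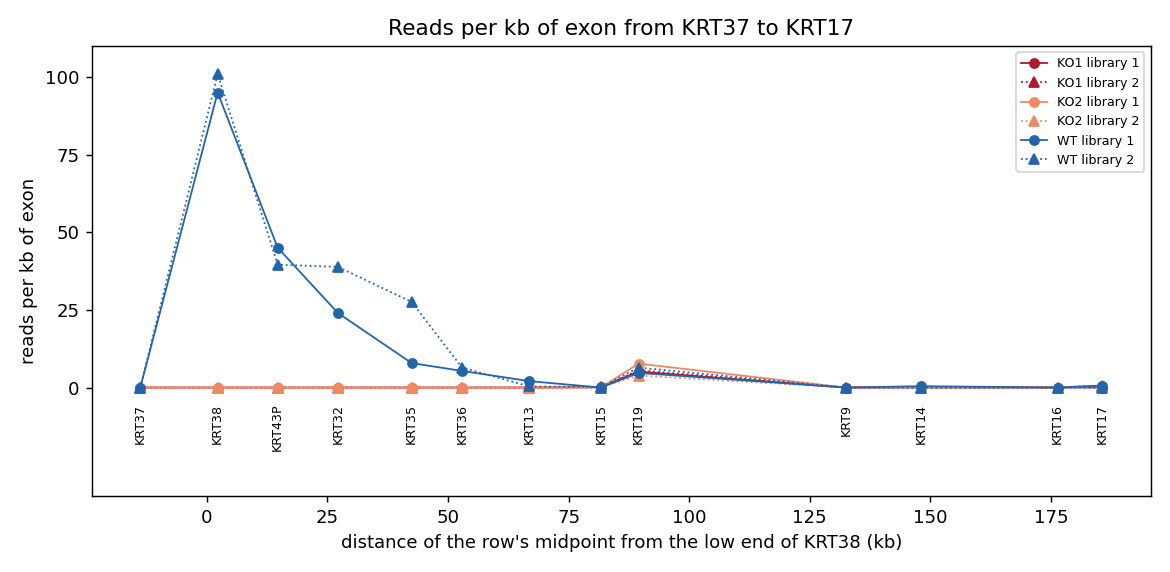
Reads per kb of exon (vertical axis) of the keratin rows from KRT37 to KRT17 against the distance of each row's midpoint from the low end of KRT38 in kb (horizontal axis), with 1 line per library. In WT the values start at 0 in KRT37, reach 95.0 and 101.0 in KRT38 and decline to 5.36 and 6.43 in KRT36; all 4 knockout libraries stay at 0 until KRT15 and KRT19.

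The low edge of the WT reads was sharp. KRT37, the hair keratin next to KRT38, ends 11.9 kb before it and had 0 reads in all 6 libraries. The edge of the WT reads thus lies between KRT37 and KRT38 at the resolution of annotated exons. With no WT reads in KRT37, a fall there could not be seen, so the low end of the loss is not known. The transcripts of KRT38 and KRT37 are near copies, with 93.6% of 1475 aligned bases identical. Of the 50-base stretches of the KRT38 transcript, 8.13% also occur in KRT37, and reads there can be shared. For KRT32 and KRT35 the share found in any other of 203 keratin genes was 1.47% and 1.33%, and for KRT43P and KRT36 it was 0.

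On the low side the lack of reads went far beyond KRT37. Of the 57 rows between KRT38 and the nearest row with a mean count of at least 10, KRT10, 52 had no read in any library, and all 57 together had 35 reads over the 6 libraries. Of these, 51 were keratin and keratin-associated protein rows, and 49 of them were at 0 throughout. The hair keratins KRT31, KRT33A, KRT33B, KRT34, KRT39 and KRT40 were among those at 0. KRT10, a keratin of the upper epidermis, lies 613.9 kb from the block and had 187 and 251 reads in KO1, 160 and 189 in KO2, and 175 and 246 in WT. The KRT10 groups overlapped, and its row was called in neither line, at 0.15 ± 0.16 in KO1 and −0.40 ± 0.16 in KO2 (log2 fold change ± SE against WT, n = 2 against 2; adjusted p by edgeR's quasi-likelihood test 0.568 and 0.0598).

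The high edge faded out between KRT36 and KRT15. KRT13 had 0 and 0 reads in KO1, 0 and 0 in KO2, and 6 and 1 in WT. Against the limit of 3 reads, the WT sum was 2.21-fold higher for KO1 and 2.56-fold for KO2. These values leave out the counting error of the few WT reads, so they do not bound the drop. In WT library 2 the single KRT13 read lay within the limit that a count of 0 allows, so a difference was not detectable from that library. AC019349.1, over 476 exonic bases of KRT13 on the other strand, had 1 and 1 reads in KO1, 0 and 4 in KO2, and 0 and 0 in WT, too few to compare. KRT15 had 1 and 0 reads in KO1, 0 and 1 in KO2, and 0 and 1 in WT, with both lines and WT at or under that limit.

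KRT19, which begins 31.07 kb beyond KRT36, had 12 and 13 reads in KO1, 18 and 9 in KO2, and 11 and 15 in WT, and the groups overlapped. Its log2 fold change was 0.03 ± 0.54 in KO1 (SE, n = 2 against 2) and −0.07 ± 0.54 in KO2, with edgeR adjusted p-values of 0.981 and 0.945. Between the lines, a contrast that did not choose the row, KRT19 was at 0.10 ± 0.54 in KO1 over KO2, with an edgeR adjusted p of 0.936, where 10.3% of all tested rows were called lower and 10.1% higher in KO1 than in KO2, 20.4% in all. In WT, KRT19 had 4.71 and 6.42 reads per kb of exon, next to 5.36 and 6.43 for KRT36, with overlapping intervals of 2.35 to 8.43 for KRT19 in WT library 1. At a like read level per length in WT, KRT36 had no read in 4 knockout libraries, and KRT19 had between 9 and 18. KRT36 was chosen for its missing knockout reads, so this contrast is a description.

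Further on, KRT9 and KRT16 had no reads. KRT14 had 1 read in WT library 1 and none elsewhere. KRT17, a keratin of hair follicles and injured epidermis, had 0 and 2 reads in KO1, 2 and 1 in KO2, and 2 and 0 in WT. LINC00974 had 1 read in WT library 1, while RNU2-32P, which lies between KRT32 and KRT35 on the plus strand, and MIR6510, within KRT15, had none in any library. Of the 17 rows placed from KRT37 to KRT17, reads above 3 in any library were therefore limited to the block, KRT13, KRT19 and AC019349.1.

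Beyond the keratins, the tested rows around the block did not share its loss. The nearest of them, EIF1, lies 196.3 kb from the block. It was the only 1 of 39 further rows placed within 250 kb that was tested. For rows that did not pass the filter, a loss could not be judged. Within 500 kb on either side, 80 further rows were placed and 12 were tested, all on the high side. In KO1, 1 was called higher and 4 lower, and in KO2, 1 higher and 3 lower, where 23.6% and 29.0% of all tested rows were called in either direction. Their log2 fold changes ran from −0.95 to 1.77 in KO1 and from −0.78 to 1.78 in KO2. The medians were 0.04 in KO1 and 0.11 in KO2, beside 0.01 and 0.02 over all tested rows. Within 1000 kb the medians had the other sign, −0.16 in KO1 and −0.28 in KO2, with 1 of 23 rows called higher and 6 lower in KO1, and 1 higher and 5 lower in KO2. Of the farther rows, NKIRAS2 and HSPB9 were called lower in both lines. NKIRAS2 had 2144 and 2217 reads in KO1, 2220 and 2424 in KO2, and 2511 and 2773 in WT. The NKIRAS2 row was at −0.19 ± 0.07 in KO1 and −0.32 ± 0.07 in KO2 (edgeR adjusted p 0.0275 and 0.000202). HSPB9, a small heat shock protein of testis, had 31 and 25 reads in KO1, 25 and 46 in KO2, and 58 and 65 in WT. It fell by 1.05 ± 0.30 in KO1 and 0.93 ± 0.29 in KO2 (edgeR adjusted p 0.00892 and 0.0141). By DESeq2 it was called in neither line, and the KO1 call was lost without KO1 library 2 (−0.95) and the KO2 call without WT library 2 (−0.90) or KO2 library 1 (−0.58).

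The nearest, EIF1 (a translation initiation factor), had 98 and 98 reads in KO1, 108 and 119 in KO2, and 54 and 78 in WT. It rose by 0.65 ± 0.21 in KO1 and 0.65 ± 0.21 in KO2, with edgeR adjusted p-values of 0.0216 and 0.0166. The row missed the threshold in both lines once WT library 1 was left out (0.46 and 0.45) and by DESeq2 (adjusted p 0.0929 and 0.0934). The KO1 call was also lost without KO1 library 2 (0.61), and the KO2 call without KO2 library 2 (0.62). JUP, the desmosome and adherens junction protein plakoglobin, had 12 and 8 reads in KO1, 13 and 23 in KO2, and 12 and 19 in WT, and was not called.

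P3H4, a collagen-modifying protein, had 42 and 32 reads in KO1, 97 and 70 in KO2, and 69 and 82 in WT. It fell by 0.95 ± 0.26 in KO1 (edgeR adjusted p 0.0061, and 0.066 without KO1 library 2) and was at 0.02 ± 0.23 in KO2. FKBP10, a collagen chaperone, had 101 and 72 reads in KO1, 97 and 120 in KO2, and 87 and 92 in WT, and was called in neither line. KLHL10, a testis ubiquitin ligase adaptor, had 82 and 101 reads in KO1, 83 and 140 in KO2, and 168 and 180 in WT. Its row fell by 0.84 ± 0.20 and 0.78 ± 0.19, with edgeR adjusted p-values of 0.00131 and 0.00179; without KO2 library 1 it was at −0.48 in KO2 and not called. NT5C3B, a nucleotidase that shares 170 exonic bases with KLHL10 on the other strand, had 30 and 18 reads in KO1, 44 and 25 in KO2, and 21 and 18 in WT, and was called in neither line. The other called rows were AC125257.2, which fell by 0.22 ± 0.05 in KO1 and 0.25 ± 0.05 in KO2, and CNP, which fell by 0.18 ± 0.06 and 0.28 ± 0.06 (edgeR adjusted p 0.00188 and 0.000262 for AC125257.2, 0.0278 and 0.000299 for CNP). With upper-quartile scaling neither was called in KO1, at −0.14 and −0.10. The CNP row also missed the threshold in KO1 with the other filters and without WT library 1, WT library 2 or KO1 library 1. On the low side, AC073508.2, AC073508.3 and TOP2A, farther out than KRT10, were called in neither line. AC080112.1, the fifth row on that side, had 5 and 8 reads in KO1, 22 and 24 in KO2, and 17 and 25 in WT, and fell by 1.59 ± 0.52 in KO1 (edgeR adjusted p 0.0236). That call was lost by DESeq2, without KO1 library 1 (−1.26) and without WT library 2 (−1.35), and its KO2 value was 0.00 ± 0.44. Every one of these rows kept reads in all 6 libraries, unlike the block.

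**Figure D3:**
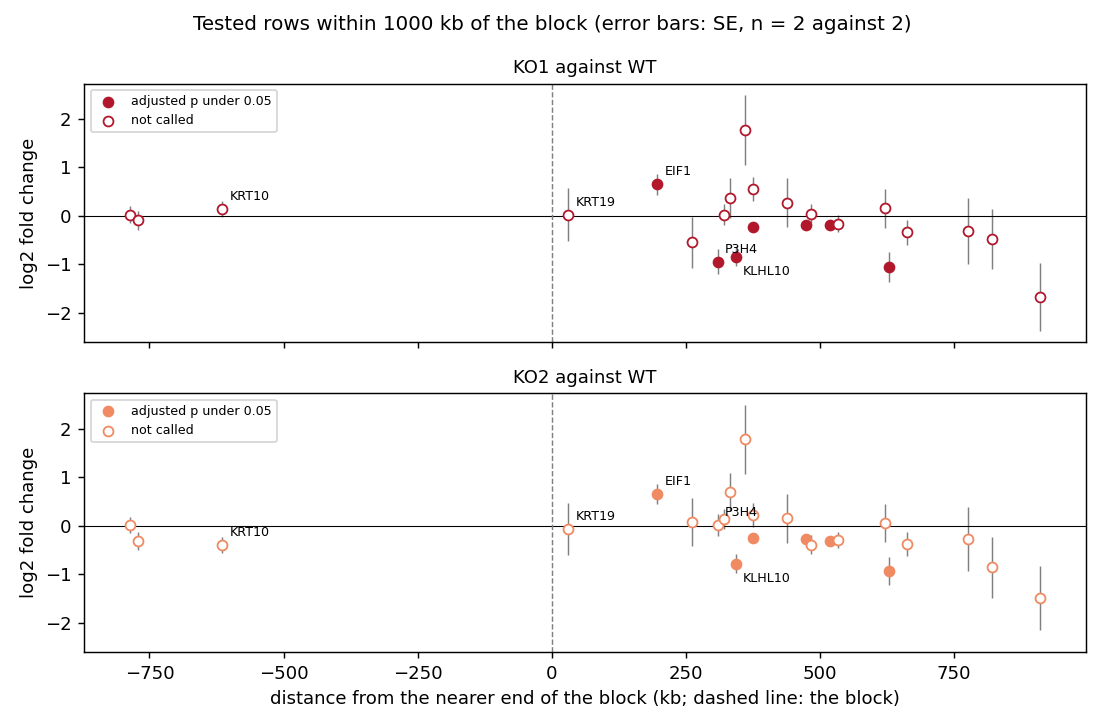
Log2 fold change against WT (vertical axis, error bars are SE, n = 2 against 2) of tested rows within 1000 kb of the block, against distance from the nearer end of the block in kb (horizontal axis), for KO1 above and KO2 below; filled points passed an adjusted p of 0.05. KRT19 sits at 0.03 and −0.07 beside the block, and no row on the low side was tested nearer than KRT10.

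Across the table, few rows had the pattern of the block. This pattern chose the block, so its place among such rows is described and not tested. Of 11557 rows with at least 10 reads in each WT library, 10 had no read in any of the 4 knockout libraries, 0.0865%, and 5 of these 10 were the block. The block held 730 of the 1075 WT reads of these rows. The other 5, ranked by their WT reads, were led by AC006026.3 (chromosome 7, 23680195 to 23680786, over 75 exonic bases of FAM221A) with 40 and 61 WT reads. AC005041.3 (chromosome 2, 74501717 to 74502365) had 45 and 37 WT reads, and HNRNPCP4 (chromosome 16, 11242653 to 11243552) had 40 and 26. AC007220.1 (chromosome 16, 11196177 to 11224969) had 27 and 31 WT reads, and the histone row HIST1H3F (chromosome 6, 26250195 to 26250605) had 18 and 20. Among rows with any read, in order along the chromosomes, the block was the longest run of such rows, at 5. The other run held AC007220.1 and HNRNPCP4, 17.7 kb apart on chromosome 16, and the remaining 3 stood alone.

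Taking each line alone, 24 of the 11557 rows were at 0 in both KO1 libraries and 17 in both KO2 libraries. In the other direction, 12 rows had at least 10 reads in each knockout library and none in WT. KRT36, with 10 and 12 WT reads, was just inside the minimum, and KRT13, the next row along, was below it in both WT libraries, with 6 and 1. With a minimum of 5 reads, chosen beside the others, 17 rows had the pattern, and with 20 reads 7, of which 3 were block rows (KRT38, KRT43P and KRT32).

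**Figure D4:**
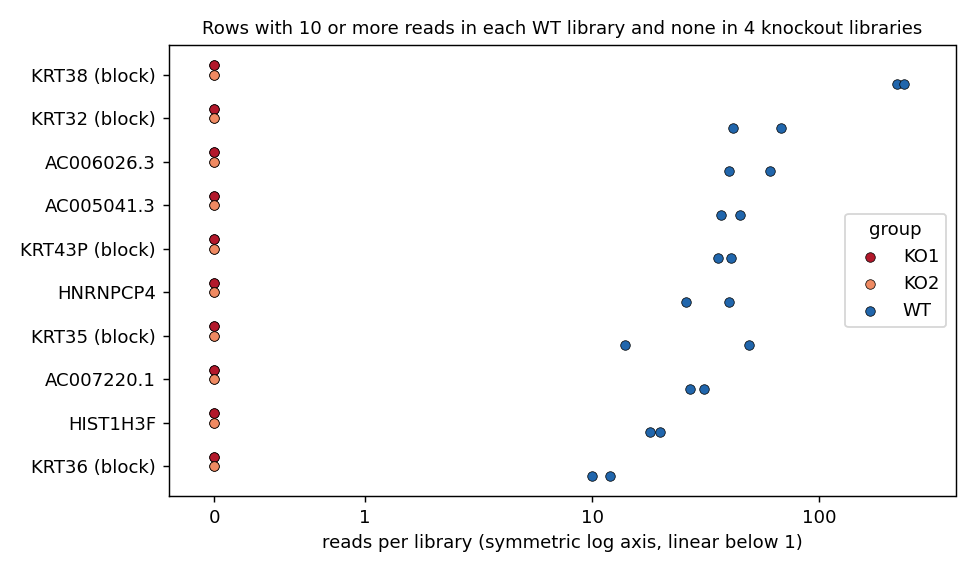
Reads per library (horizontal axis, symmetric log scale, linear below 1) of the 10 rows with at least 10 reads in each WT library and none in the 4 knockout libraries, ordered by summed WT reads. KRT38 leads with 222 and 236 WT reads, and 5 of the 10 rows belong to the block.

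Rows of genes that accompany hair keratins mostly had no reads in any group. Because the strand counted is not known, a row at 0 is not given as a gene that is off. All 7 type I hair keratins outside the block were at 0 in all libraries. Of the 6 type II hair keratins, the pairing partners, KRT82, KRT83, KRT84 and KRT85 were at 0. KRT81 had 1 read in a KO2 library, and KRT86 had 2 and 0 reads in KO1, 5 and 1 in KO2, and 3 and 8 in WT. None of the 13 rows passed the filter, so no partner of the block rows could be tested.

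Of 5 regulators of hair differentiation, 2 rows were tested, with 0 called in KO1 and 1 called lower in KO2, where 13.3% and 15.4% of all tested rows were called lower. HOXC13, a homeobox factor of hair and nail, had 36 and 52 reads in KO1, 31 and 23 in KO2, and 60 and 46 in WT. It was at −0.19 ± 0.29 in KO1 and fell by 1.11 ± 0.32 in KO2 (edgeR adjusted p 0.709 and 0.00666), the second not called without WT library 1 (−0.85) or KO2 library 2 (−0.87). HOXC13-AS lies over 172 exonic bases of HOXC13 on the other strand. It had 493 and 481 reads in KO1, 281 and 300 in KO2, and 419 and 505 in WT. In KO2 against WT it was at −0.80 (edgeR adjusted p 8.63e-08) and was also called by DESeq2. LEF1 had 24 and 32 reads in KO1, 29 and 39 in KO2, and 12 and 31 in WT, and was called in neither line. LEF1-AS1, over 279 exonic bases of LEF1, had 923 and 887 reads in KO1, 570 and 570 in KO2, and 808 and 906 in WT. In KO2 against WT this row was at −0.72 (edgeR adjusted p 4.62e-09) and was also called by DESeq2. FOXN1 was at 0, DLX3 had 1 read and MSX2 had 2 to 5 reads per library.

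Rows of epidermal cell markers were mostly at or near 0. Of 8 keratinocyte markers, KRT5, KRT1, TP63 and DSG1 were at 0 in every library, KRT14 and DSG3 had 1 read each in all, and COL17A1 had 2 to 14 reads per library. Their summed reads, nearly all of KRT10, were 189 to 257 in KO1, 174 to 197 in KO2 and 185 to 251 in WT. KRT10 was the 1 tested row of the list and was called in neither line.

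Of 202 keratin rows, pseudogenes included, 137 had no read in any library and 14 had a mean count of at least 10, 4 of them in the block. Of the other 10, the KRT8 row, named for the type II keratin of simple epithelia, was the most abundant, with 2560 and 2740 reads in KO1, 4600 and 4914 in KO2, and 3416 and 3680 in WT. It shares 525 exonic bases with KRT18, its type I partner on the other strand. The KRT8 row fell by 0.34 ± 0.06 in KO1 and rose by 0.29 ± 0.06 in KO2 (edgeR adjusted p 9.7e-05 and 0.000499). The KRT18 row had 75 and 115 reads in KO1, 229 and 255 in KO2, and 76 and 72 in WT, and rose by 1.57 ± 0.19 in KO2 (edgeR adjusted p 3.47e-08). These rows, with KRT10 and KRT19, kept reads in all 6 libraries.

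Of the pseudogene rows among the 10, KRT8P12 had 41 and 31 reads in KO1, 41 and 49 in KO2, and 54 and 75 in WT. It fell by 0.76 ± 0.27 in KO1 (edgeR adjusted p 0.0402), a call lost in several other fits. KRT18P7 had 24 and 17 reads in KO1, 8 and 13 in KO2, and 21 and 27 in WT, and fell by 1.32 ± 0.47 in KO2 (edgeR adjusted p 0.0302), not called by DESeq2 or without WT library 1 or 2 or KO2 library 1. KRT8P29 had 2 and 6 reads in KO1, 23 and 15 in KO2, and 9 and 5 in WT. KRT18P12, KRT18P34 and KRT18P63 were called in neither line. Reads of such near copies may be shared with their parent genes.

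The cell line and its knockout could be checked only in part. The THUMPD2 row had 0 to 3 reads in every library, so it does not check the genotype labels. All 8 markers of HEK293T cells had reads in at least 1 library, although PAX2 had at most 5. Of the 7 tested, 0 were called higher and 2 lower in KO1, and 5 higher and 1 lower in KO2, where over all tested rows 10.4% were called higher and 13.3% lower in KO1, and 13.6% higher and 15.4% lower in KO2. Their log2 fold changes ran from −2.48 to 0.96 in KO1 and from −1.86 to 2.65 in KO2. NEFM, the lowest in KO1 and the highest in KO2, had 7 and 3 reads in KO1, 229 and 186 in KO2, and 37 and 23 in WT. The NEFM row was at −2.48 ± 0.46 in KO1 and 2.65 ± 0.25 in KO2 (edgeR adjusted p 5.94e-05 and 8.61e-11). NEFL, the highest in KO1 but not called there, had 24 and 15 reads in KO1, 55 and 70 in KO2, and 9 and 12 in WT. The lowest in KO2 was LIN28B, an RNA-binding protein of early development, with 9 and 11 reads in KO1, 3 and 9 in KO2, and 21 and 19 in WT (edgeR adjusted p 0.0148 in KO2, lost by DESeq2 and without WT library 1 or KO2 library 1). VIM, the mesenchymal intermediate filament, had 296 and 313 reads in KO1, 678 and 692 in KO2, and 339 and 352 in WT, and VIM-AS1 on the other strand had 23367 and 25010 in KO1, 44695 and 47482 in KO2, and 26970 and 28026 in WT. The spread between the 2 libraries exceeded sampling noise in each group: chi-square divided by its degrees of freedom was 3.62 for KO1, 2.19 for KO2 and 2.32 for WT.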

How the data were processed

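Per the file headers, a table of raw read counts by gene symbol and a shorter table with FPKM values, log2 fold changes, q-values and gene sizes were deposited. Counts summed to far fewer reads than the sequencing depth in the series' design text. Per the submitters' processing notes, reads were handled with STAR 2.7.1a, Trim Galore, limma and HTSeq 0.6.1p1 on builds hg38 and GRCh38.p6. The labels give a directional (RF) kit; neither the annotation nor HTSeq's strand option is stated there. FPKM, log2 fold changes and q-values are quoted only as the authors' own.

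Groups came from sample titles. Counts were fitted with edgeR 4.0.16 in R 4.3.3 (quasi-likelihood F test, TMM factors, filterByExpr, 3 groups, 14184 rows, Benjamini-Hochberg threshold 0.05). SEs were the log2 fold change over the root of F. DESeq2 1.42.0, RLE and upper-quartile factors, other filters, the replicate number as a term, other windows and leaving out each library were alternatives. The fit was tested on simulated data.

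Rows were placed on GENCODE v29 by symbol (56195 of 59087). Reads per kb used merged exons. Gene sizes of KRT38, KRT43P, KRT32 and KRT35 in the authors' deposited table equalled them. Of all 11348 placed rows with a size there, 3168 had equal sizes. KRT36, KRT13, KRT15 and KRT19 had no size there to compare. Members, lists and tests were chosen with earlier results of these data known. Named rows were the 8 members, all rows from KRT37 to KRT17, the 5 nearest rows per side with a mean count of at least 10, rows over a member's exons, keratin and hair regulator rows at that level, and the rows most like the block. HEK293T, keratinocyte and hair markers were lists; EIF1 to KLHL10 lie in the 500 kb window. KLHL10, NT5C3B, CNP, NKIRAS2, HSPB9, LIN28B, NEFM, NEFL, the list rows below a mean of 10 and AC125257.2 with ACLY were added after values were seen.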

Additional observations from a re-analysis of the deposited data

Results flagged for a closer look

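No group had enough libraries for a check of single outlying samples. For NEFM and NEFL of the HEK293T markers, and for 11 other rows with values in the text, the effects of the knockout lines differed. The contrast was KO1 against KO2 in the edgeR fit (log2 fold change of KO1 over KO2, Benjamini-Hochberg adjusted over all rows). None is in the block or its flank. There the block rows and KRT13 had 0 reads in both lines, KRT15 had too few reads to test, and KRT19 was not called.

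KRT10 was at 0.55 ± 0.16 (adjusted p 0.0121), and at 0.27 without KO1 library 2 and 0.46 without KO2 library 1, not called. P3H4 was at −0.96 ± 0.26 (adjusted p 0.00553), and at −0.82 without KO1 library 2 and −0.68 without KO2 library 1, not called. KRT18 was at −1.13 ± 0.19 and KRT8 at −0.63 ± 0.06, called in every fit run. So were VIM at −0.95 ± 0.10, VIM-AS1 at −0.71, HOXC13-AS at 0.96 and LEF1-AS1 at 0.88. HOXC13 was at 0.92 ± 0.32 (adjusted p 0.0389), and at 0.58 without KO1 library 2 and 0.68 without KO2 library 2, not called, nor by DESeq2. Among the HEK293T markers, NEFM was at −5.13 ± 0.34 (adjusted p 4.34e-14) and NEFL at −1.46 ± 0.34 (adjusted p 0.00133).

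KRT8P29 was at −2.00 ± 0.68 (adjusted p 0.0318), not called without KO1 library 1 (−1.39), without KO2 library 1 (−1.63) or with the replicate number as a term (−1.97), and with no adjusted p by DESeq2. AC080112.1, the fifth row of at least 10 mean reads on the low side of the block, had 5 and 8 reads in KO1, 22 and 24 in KO2, and 17 and 25 in WT, and was at −1.59 ± 0.52 (adjusted p 0.0251), not called without KO1 library 1 (−1.25) or either KO2 library (−1.62 and −1.57), and with no adjusted p by DESeq2. It shares 733 exonic bases with GJD3 on the other strand.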

How the results depend on the processing

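All 5 block rows were called lower in both lines by edgeR with each scaling and filter. With DESeq2, 3 were called in KO1, where KRT35 missed the threshold and KRT36 had no adjusted p, and 4 in KO2. Leaving out a library gave 3 to 5 in KO1 and 3 to 5 in KO2, the lowest without WT library 2, where 3 rows could be tested. Rows called within 500 kb numbered 5 in KO1 and 4 in KO2, 3 in KO1 with upper-quartile factors, 1 and 1 within 250 kb, 7 and 6 within 1000 kb (6 and 5 of them lower), and 3 to 5 in each line without 1 library. KRT19 was called in no fit; without 1 library it ranged from −0.13 to 0.21 in KO1, −0.68 to 0.38 in KO2 and −0.35 to 0.71 in KO1 over KO2. Its sign therefore has no stable direction. The 10 rows at 0 in all knockout libraries became 17 with a minimum of 5 WT reads, 7 with 20, and 10 to 14 without 1 library. The cause of these shifts was not tested beyond the fewer reads or rows that each setting leaves. Replicate numbers did not pair the libraries: deviations correlated at −0.03 between KO1 and WT, −0.02 between KO2 and WT and −0.02 between KO1 and KO2. With the replicate block, 5 block rows were called in each line, 5 and 4 window rows, and KRT19 was at 0.02 in KO1, −0.09 in KO2 and 0.11 in KO1 over KO2. Depth limits KRT13, KRT15 and KRT36, where a few reads decide the value.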
